A study of Homo sapiens with 22 samples.

Results

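The loci described here were the places in control TC-32 cells that carried acetylation of lysine 27 of histone H3 (H3K27ac), trimethylation of lysine 4 of histone H3 (H3K4me3), or both. A region of a mark was kept when both control peak lists of that mark held a peak there on chromosomes 1 to 22 or X, and regions of the 2 marks that shared at least 1 bp were joined into 1 locus. This gave 36812 loci from 4 lists, in a series whose 14 peak lists held 411990 peaks on these chromosomes. Of the loci, 8575 carried both marks, 22692 carried H3K27ac only and 5545 carried H3K4me3 only.

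TC-32 is an established cell line of Ewing sarcoma, a tumour of bone and soft tissue driven by the fusion protein EWSR1::FLI1. The series was on regulation of ETS1 by the fusion and sequenced chromatin immunoprecipitates of cells given a control siRNA (siNEG) or an siRNA against FLI1 (siFLI1), each at 20 nM by reverse transfection. The control group used here had 2 H3K27ac libraries (an Active Motif antibody) and 2 H3K4me3 libraries (an EpiCypher antibody). The fusion was not depleted in these cells, but they had been transfected, and all libraries came from 1 line, so the marks are those of transfected TC-32 cells. A further siNEG H3K27ac library labelled ab4729, the siNEG ETS1 libraries and the siFLI1 libraries of both marks had no part in choosing the loci and are given beside them.

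H3K4me3 is laid down by SET1 and MLL family complexes around transcription start sites (TSSs), mostly at promoters rich in CpG dinucleotides. H3K27ac is written by the acetyltransferases p300 and CBP at active promoters and also at active enhancers, which carry little H3K4me3. A promoter with H3K4me3 but without H3K27ac is often taken as open but weakly active or silent, yet neither mark measures transcription, and a region missing from a peak list can still carry the mark at a lower level. EWSR1::FLI1 binds repeats of the sequence GGAA, where it can create enhancers.

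Promoters in each state were printed to show how they differ in sequence. The states were assigned to 19970 protein-coding genes from the window of 1 kb to each side of any annotated TSS. The printed stretches run from 250 bases before to 50 bases after the start in the direction of the gene. They come from RefSeq on GRCh38.p14, and capitals mark each CG dinucleotide. EWSR1, which encodes the RNA-binding partner in the fusion and whose promoter drives the fusion gene, carried both marks. Its promoter (chr22:29268018-29268317, plus strand) held 28 CG dinucleotides. TGFBR2, a receptor of TGF-beta, carried H3K4me3 only (chr3:30606351-30606650, plus strand) and held 23. SLC25A45, a member of the mitochondrial carrier family, carried H3K27ac only (chr11:65382597-65382896, minus strand) and held 5. ALB, the serum albumin gene of liver, carried neither mark (chr4:73404037-73404336, plus strand) and held 4.
EWSR1: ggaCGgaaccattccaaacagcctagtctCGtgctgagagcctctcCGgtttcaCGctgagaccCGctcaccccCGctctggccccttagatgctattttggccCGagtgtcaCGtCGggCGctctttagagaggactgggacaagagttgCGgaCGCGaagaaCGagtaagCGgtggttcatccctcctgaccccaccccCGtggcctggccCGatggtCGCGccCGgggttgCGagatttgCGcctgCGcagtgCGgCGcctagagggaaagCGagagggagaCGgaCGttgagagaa
TGFBR2: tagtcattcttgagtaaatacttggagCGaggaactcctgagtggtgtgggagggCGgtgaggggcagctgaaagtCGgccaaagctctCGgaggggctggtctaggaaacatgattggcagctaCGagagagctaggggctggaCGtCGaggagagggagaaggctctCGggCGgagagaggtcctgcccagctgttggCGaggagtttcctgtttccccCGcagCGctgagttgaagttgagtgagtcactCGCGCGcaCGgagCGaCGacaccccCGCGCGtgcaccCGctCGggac
SLC25A45: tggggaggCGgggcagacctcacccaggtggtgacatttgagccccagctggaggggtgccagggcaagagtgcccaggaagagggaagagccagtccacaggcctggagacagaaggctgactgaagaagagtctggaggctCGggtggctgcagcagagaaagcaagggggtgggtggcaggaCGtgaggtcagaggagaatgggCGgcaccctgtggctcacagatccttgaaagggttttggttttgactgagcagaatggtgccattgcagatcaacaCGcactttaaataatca
ALB: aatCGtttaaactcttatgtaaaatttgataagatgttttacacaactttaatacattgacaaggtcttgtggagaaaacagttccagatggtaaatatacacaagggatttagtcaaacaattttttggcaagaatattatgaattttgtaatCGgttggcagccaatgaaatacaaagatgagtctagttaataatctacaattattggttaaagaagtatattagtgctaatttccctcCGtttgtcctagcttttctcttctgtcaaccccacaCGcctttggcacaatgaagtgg
The first and second sequences hold many capitals, those of TGFBR2 closest together towards the end, and the other two hold them singly.

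The second set shows GGAA repeats inside 2 of the H3K27ac-only loci with the highest fold enrichment away from TSSs. They are printed on the plus strand of hg38 with 40 bases to each side, and capitals mark the run. The run nearest to ARG1 (chr6:131383670-131383801) had 13 units, and that nearest to SPRED2 (chr2:65748086-65748221) had 14. The run near SPRED2 reads TTCC on this strand, the reverse complement of GGAA.
ARG1: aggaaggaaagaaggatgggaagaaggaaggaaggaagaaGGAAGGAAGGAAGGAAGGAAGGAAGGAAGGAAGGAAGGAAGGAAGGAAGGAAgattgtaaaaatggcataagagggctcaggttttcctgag
SPRED2: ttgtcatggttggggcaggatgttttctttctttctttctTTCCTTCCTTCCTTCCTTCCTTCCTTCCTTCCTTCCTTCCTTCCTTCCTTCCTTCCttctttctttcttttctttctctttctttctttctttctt
Each run is a plain string of the 4-base unit, as the search asked for. The flank before the ARG1 run holds further GGAA units, set off from the run by a break.

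The H3K27ac lists held 60027 and 60401 regions in replicates 1 and 2, and the H3K4me3 lists held 18914 and 19720. H3K27ac regions were short, with median widths of 589 and 547 bp, and H3K4me3 regions were longer, at 1843 and 1716 bp. The centre lay within 1 kb of a TSS for 28.7% and 28.4% of H3K27ac regions and for 63.7% and 61.6% of H3K4me3 regions. For these 3 measures the 2 libraries of a mark lay close together and the marks did not overlap. The mean promoter share was 62.6% ± 1.54 (SD, n = 2) for H3K4me3 and 28.5% ± 0.215 (SD, n = 2) for H3K27ac, a difference of 34.1 percentage points against a spread of 1.10 within marks (exact permutation test, two-sided p = 0.33). H3K4me3 regions were wider by 1.65 on the log2 scale (SD within marks 0.07; exact permutation test, two-sided p = 0.33). Their number was lower, with a log2 ratio of -1.64 (SD within marks 0.03; exact permutation test, two-sided p = 0.33). With 2 libraries against 2, no p below 0.33 can be reached, and the labels do not say whether the replicates were separate cultures, so this p covers only the spread between libraries.

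Replicates overlapped less for H3K27ac than for H3K4me3. Of 72167 merged H3K27ac regions, 33879 were in both lists (46.9%), 20382 only in replicate 1 and 17906 only in replicate 2. Of 20051 merged H3K4me3 regions, 14371 were in both lists (71.7%), 2267 only in replicate 1 and 3413 only in replicate 2. Peaks in 1 list alone were low. The median fold enrichment, which is the ratio of peak to background that the authors' peak caller gave, was 3.84 and 3.72 for unshared H3K27ac peaks of the 2 replicates, against 5.56 and 4.90 for shared ones. For H3K4me3 it was 3.92 and 3.75 for unshared against 27.2 and 29.3 for shared peaks. The ab4729 list overlapped 47.9% of the H3K27ac regions in both lists, 5.87% of those in replicate 1 alone and 2.83% of those in replicate 2 alone. At regions with 1 peak in each list, the replicates differed by an SD of 0.50 for H3K27ac and 0.45 for H3K4me3 on the log2 scale of fold enrichment. The sequencing depth of these libraries was not given in the sources used here.

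Loci with both marks, as joined here, were the widest of the 3 classes and had the highest peaks. They made up 23.3% of all loci (exact 95% binomial interval 22.9% to 23.7%, which here and below covers counting error over loci or genes only). Loci with H3K27ac only made up 61.6% (61.1% to 62.1%) and those with H3K4me3 only 15.1% (14.7% to 15.4%). Although fewer, the loci with both marks covered 40.7 Mb, against 38.8 Mb of H3K27ac-only and 10.6 Mb of H3K4me3-only loci. Median widths were 4258, 1164 and 1519 bp in that order. A locus with both marks joins at least 1 region of each mark, so its width and covered length are raised by the joining. From the side of each mark, 33.0% of H3K27ac regions overlapped H3K4me3, and 61.4% of H3K4me3 regions overlapped H3K27ac. How many loci were called H3K27ac only depended on the lists. Presence in replicate 1 or in replicate 2 alone gave 44302 and 44627 such loci, and the 18914 strongest peaks of each list gave 7568, against 7854 H3K4me3-only loci and 6197 loci with both marks under that setting. Likewise, H3K4me3 presence in replicate 1 or 2 alone gave 9222 and 9941 H3K4me3-only loci.

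The peaks of either mark were higher where the other mark was present. In loci with both marks the highest H3K27ac peak had a median fold enrichment of 10.0 in replicate 1 and 7.56 in replicate 2, against 5.30 and 4.84 in H3K27ac-only loci. H3K4me3 had 47.7 and 50.4 in loci with both marks, against 12.8 and 13.0 in H3K4me3-only loci. The order was the same in both libraries of each mark, and the classes come from the same lists, so these values are a description without a test. In loci with both marks the highest peak can also be taken over more regions, since some hold more than 1 H3K27ac region, as given below. The ranges from the 25th to the 75th percentile overlapped between classes for H3K27ac (6.76 to 15.6 against 4.07 to 7.86 in replicate 1). For H3K4me3 they did not (30.7 to 62.6 against 5.69 to 28.4). The presence of H3K27ac followed the height of H3K4me3. H3K4me3 regions were ranked by fold enrichment and split into 10 bins of equal number. In the lowest bin, with a median fold of 4.07 in replicate 1, 23.6% overlapped H3K27ac. In the fifth bin, with a median fold of 29.1, 60.3% did, and in the highest, with a median fold of 74.9, 97.1% did. By width the share went from 22.4% in the narrowest bin, of median 543 bp, to 95.6% in the widest, of median 6769 bp. Where both marks met, H3K4me3 was the wider one in 80.7% of loci, its median width being 3964 bp and that of H3K27ac 1795 bp, and 24.3% of these loci held more than 1 separate H3K27ac region.

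**Figure D1:**
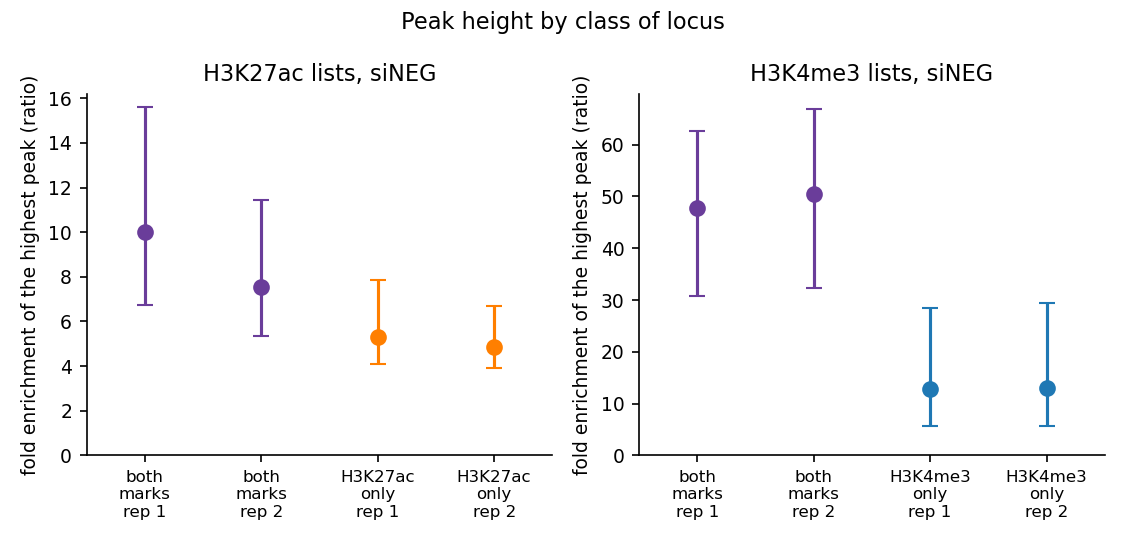
Fold enrichment (the authors' ratio, vertical axis from 0) of the highest H3K27ac peak (left) and H3K4me3 peak (right) of a locus, by class and siNEG replicate. Points are medians over loci and bars span the 25th to 75th percentile; in both replicates the loci with both marks lie above those with 1 mark, by the most for H3K4me3 (47.7 and 50.4 against 12.8 and 13.0).

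The classes differed in where they lay. The window of 1 kb to each side of a TSS was touched by 95.4% of loci with both marks and by 81.6% of H3K4me3-only loci, but by 17.8% of H3K27ac-only loci. For TSSs of protein-coding genes alone the shares were 89.7%, 71.1% and 5.94%. The centres of H3K27ac-only loci were in introns for 60.5% and between genes for 23.2%, and their median distance to any TSS was 7694.5 bp, against 563 bp for loci with both marks and 464 bp for H3K4me3-only loci. They also lay far from H3K4me3. The median distance to the nearest H3K4me3 region was 35552.5 bp, 4.76% lay within 2 kb of one, and 58.9% within 50 kb. H3K27ac-only loci were thus mostly distal, but 4043 of them did touch a TSS window, and 394 loci with both marks and 1019 with H3K4me3 only touched none.

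Libraries that had no part in the choice had peaks at different shares of the 3 classes. The ab4729 library, with another antibody label, had a peak in 86.8% of loci with both marks (86.1% to 87.5%), in 34.9% of H3K27ac-only loci (34.3% to 35.6%) and in 10.4% of H3K4me3-only loci (9.65% to 11.3%). Its list was shorter and its peaks narrower, with 32738 peaks of median width 342 bp. Among H3K27ac regions above the 75th percentile of fold enrichment in both lists, it had a peak in 95.5% of those with H3K4me3 and in 77.7% of those without. ETS1 peaks were few, 302 and 208, and 82.8% and 79.8% of them lay in loci with both marks, 10.6% and 8.17% in H3K4me3-only loci and 2.98% and 3.85% in H3K27ac-only loci. After siFLI1, the H3K27ac lists had a peak in 97.8% and 97.6% of loci with both marks and in 75.4% and 73.8% of H3K27ac-only loci. They also had one in 28.3% and 25.1% of H3K4me3-only loci, where 25.2% of loci had an H3K27ac peak in 1 siNEG list, or in each but not at the same place. The siFLI1 H3K4me3 lists had a peak in 98.3% and 98.6% of loci with both marks, in 88.6% and 89.0% of H3K4me3-only loci and in 1.20% and 1.34% of H3K27ac-only loci.

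The base composition of the classes also differed, although sequence had no part in the choice. In the 500 bp around the centre, the ratio of observed to expected CpG had a median of 0.505 in loci with both marks, 0.629 in H3K4me3-only loci and 0.211 in H3K27ac-only loci, against 0.183 in windows of the same length every 10 kb of the genome. The GC content was 51.6%, 59.4% and 44.8%, against 40% in the genome. Motifs were searched on both strands. The ETS motif CCGGAA was found in 16.4% of loci with both marks, 16.6% of H3K4me3-only and 5.64% of H3K27ac-only loci, against 3.19% of genome windows. For the GC box GGGCGG, a site of SP factors, the shares were 40.2%, 53.8% and 10.1%, against 6.40%. CCGGAA and GGGCGG each hold a CG, and neither holds the other. The AP-1 motif TGANTCA had the opposite order, with 21.2% of H3K27ac-only loci against 10.9% of loci with both marks, 8.19% of H3K4me3-only loci and 14.8% of genome windows. Since the classes differ in how often they touch a TSS window, the values were also taken over loci that touched none, in the order both marks, H3K4me3 only and H3K27ac only. There the median CpG ratio was 0.439, 0.343 and 0.205, CCGGAA was in 12.4%, 10.3% and 5.28%, and GGGCGG in 35.03%, 29.8% and 9.10%. TGANTCA was in 17.5% (of 394 loci; 13.9% to 21.6%), 12.3% and 21.5% of these loci. Away from TSSs the share with both marks was thus above the 14.8% of genome windows, but its interval includes that value. For the E-box CAGCTG, which reads the same on both strands, the classes as a whole lay between 20.6% and 24.5%, against 15.9% of genome windows. All these windows sit at locus centres, and the order of both marks and H3K4me3 only depended on that. At the starts of protein-coding genes, given below, the median CpG ratio was 0.855 with both marks and 0.832 with H3K4me3 only. In RefSeq promoter windows CCGGAA was in 30.0% and 19.2%, and GGGCGG in 66.6% and 67.3%. A match in any of these windows is a description of the letters and not a binding site.

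Among the 19970 protein-coding genes, 12538 had H3K4me3 at a promoter (62.8%) and 9211 had H3K27ac (46.1%). Both marks were at the promoters of 8936 genes (44.7%), H3K4me3 only at 3602 (18%), H3K27ac only at 275 (1.38%) and neither at 7157 (35.8%). Promoter H3K27ac without H3K4me3 was therefore rare, at 275 of 9211 genes with H3K27ac. Where a gene had both, a single TSS window carried both marks in 98.6% of cases. Genes with both marks had an H3K4me3 fold enrichment with medians of 52.0 and 54.6 over a median width of 4337.5 bp, against 22.8 and 23.2 over 2415 bp for H3K4me3-only genes. By peaks of single lists, the H3K4me3-only state was less settled than the H3K27ac-only state. Of its 3602 genes, 1194 (33.1%) had an H3K27ac peak in at least 1 list, though no region held by both. Of 275 H3K27ac-only genes, 28 (10.2%) had an H3K4me3 peak in at least 1 list. With the 18914 strongest peaks of each list, 5859 genes had H3K4me3 only and 128 had H3K27ac only. The ab4729 library had a peak at 89.1% of promoters with both marks, 14.8% of those with H3K4me3 only, 49.8% of those with H3K27ac only and 0.741% of those with neither (43.5% of all genes). ETS1 peaks lay at 3.14% and 2.13% of promoters with both marks, at 0.861% and 0.416% of H3K4me3-only promoters and at 0 of 275 with H3K27ac only. Over all genes the shares were 1.57% and 1.04%, and 0 of 275 allows a share of up to 1.33% (exact 95% interval), which lies between them.

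Promoters with H3K4me3 were rich in CpG whether or not they carried H3K27ac. The median ratio of observed to expected CpG in 500 bp around the start was 0.855 for genes with both marks and 0.832 for H3K4me3 only. It was 0.305 for H3K27ac only and 0.338 for neither. At ratios up to 0.2, 4.74% of genes had both marks and 88.5% had neither, and at ratios over 1 the shares were 72.2% and 7.67%. H3K27ac only had its largest share, 4.37% of genes, at ratios from 0.2 to 0.4, and a share of 0.142% at ratios over 1. In RefSeq, 21548 promoter windows of 15315 genes were matched by symbol. Each window takes the state of its gene from any TSS, so a further promoter of a gene need not carry the marks itself. The median number of CG dinucleotides in 300 bases was 26 for genes with both marks, 25 with H3K4me3 only, 6 with H3K27ac only and 7 with neither, so that the 4 promoters printed above lie near the medians of their states. The ETS motif CCGGAA was in 30.0% of windows of genes with both marks, 19.2% with H3K4me3 only, 9.67% with H3K27ac only and 8.66% with neither (21.3% of all). For the GC box GGGCGG the first 2 shares were 66.6% and 67.3%. The part of CpG content in these motif shares was not tested. TATAAA was in 6.19%, 5.35%, 16.7% and 17.01% of windows in the same order (9.44% of all). Motifs were searched on both strands, and ALB, with a low GC content, had a ratio of 0.61 in spite of its few CG dinucleotides.

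**Figure D2:**
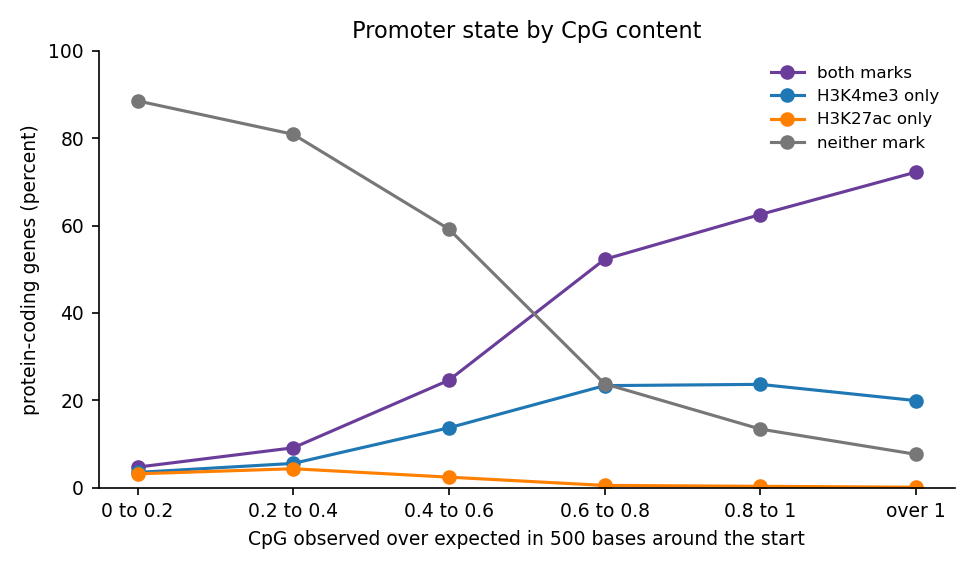
Share of protein-coding genes in each promoter state (vertical axis, percent) by the ratio of observed to expected CpG in 500 bases around the start (horizontal axis). Lines are the 4 states; both marks go from 4.74% to 72.2% and neither mark from 88.5% to 7.67%, while H3K27ac only stays at or below 4.37%.

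Within promoters that carried both marks, the summits of the 2 marks sat at different places. The H3K4me3 summit nearest to the start lay at a median of 265 and 271 bp downstream in replicates 1 and 2, and 85.8% and 85.9% of genes had it on the downstream side. For H3K27ac the medians were 149 and 153 bp, with 59.6% and 59.8% downstream, so that a large part of these promoters had the nearest H3K27ac summit upstream. Both replicates of a mark gave nearly the same profile. The start itself was poor in summits for both marks, with 13.2% and 12.2% of H3K27ac summits and 6.75% and 6.33% of H3K4me3 summits within 150 bp of it.

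**Figure D3:**
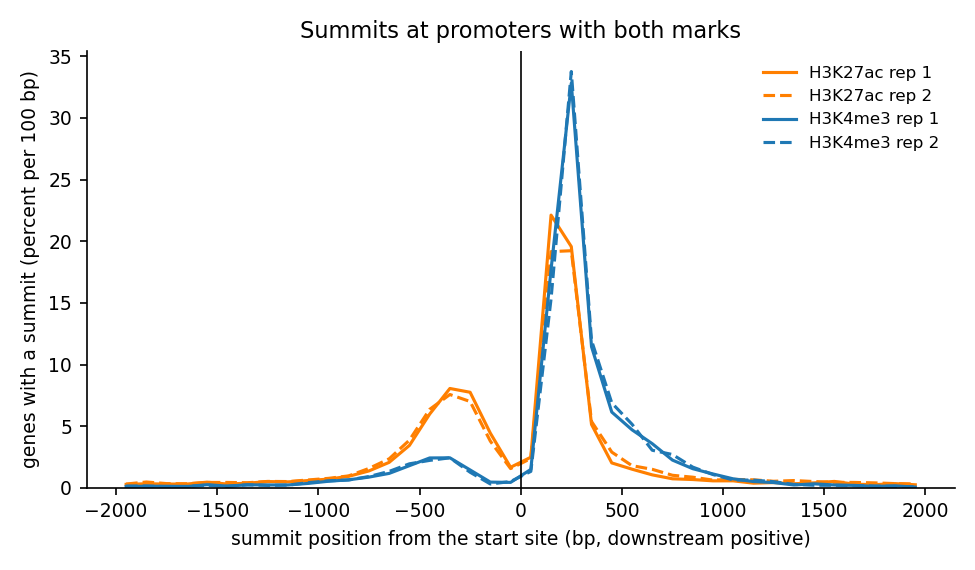
Position of the peak summit nearest to the start (horizontal axis, bp, downstream positive) at promoters with both marks, as the percent of genes per 100 bp (vertical axis). Solid and dashed lines are replicates 1 and 2; H3K4me3 has 1 main mode downstream, with medians of 265 and 271 bp, and H3K27ac has modes on both sides of a dip at the start.

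Genes of the proteasome, of mitochondrial complex I and of the cytosolic ribosome nearly all carried both marks. The lists of genes used here and below were chosen with earlier results of these data known, and their counts are read against the shares of all genes given above. All 31 proteasome subunits and all 37 subunits of mitochondrial complex I had both marks, against 44.7% of all genes. So did 78 of 80 cytosolic ribosomal protein genes, and the other two, RPL3L and RPL10L, had neither mark. Both are paralogs with expression restricted to muscle and testis in normal tissue. Fold enrichment, given for a promoter as the highest peak touching its window in each replicate, ranged widely within a list that shared the state. Among proteasome genes, PSMC5, an ATPase of the regulatory particle, had H3K27ac at 30.0 and 16.2 in replicates 1 and 2, and PSMD4, a ubiquitin receptor, had 4.50 and 8.48. Among complex I genes, NDUFA4 had 22.3 and 17.01, and NDUFA3 had 3.88 and 5.56. Fewer RNA polymerase II subunits did. Of 12, 8 had both marks (66.7%) and 3 had H3K4me3 only, namely POLR2E, POLR2F and POLR2I. POLR2A, the largest subunit, had H3K27ac at 20.6 and 38.1. With replicate 1 as the only H3K27ac list, POLR2E and POLR2I had both marks, and with replicate 2 as the only one POLR2F did. POLR2J had neither mark, and it has near-identical copies whose reads may be hard to place. Among zinc finger genes of chromosome 19, 143 of 240 had both marks and 76 had H3K4me3 only (31.7%, against 18% of all genes). These 76 were 49 with H3K27ac replicate 1 alone, and 127 with the strongest peaks only.

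Cell cycle genes followed the same pattern. Of 35 genes, 32 had both marks (91.4%, against 44.7% of all genes). The highest H3K27ac of replicate 1 was at PCNA, the sliding clamp of DNA replication, with 47.4 and 24.9 in the 2 replicates. It was about as high at MCM7, a subunit of the replicative helicase, with 46.7 and 34.6, and at MDM2, a ubiquitin ligase, with 46.1 and 39.8. MKI67, which encodes the proliferation antigen Ki-67, had 10.985 and 13.2. CDK6 and CCND2, a kinase of G1 and one of its cyclin partners, had H3K4me3 only, at 18.3 and 11.3 and at 4.07 and 5.14. CCND1, another cyclin of that kinase, carried both marks with H3K4me3 at 106 and 117. CDKN2B had neither mark. Of the 7 genes listed for Ewing sarcoma itself, 5 had both marks, among them EWSR1, CDKN2A, MTAP and STAG2, a cohesin subunit. EWSR1 had H3K27ac at 26.2 and 22.4 and H3K4me3 at 119 and 101. FLI1, the ETS partner of the fusion, had H3K4me3 only, at 8.91 and 13.4, under the median of 22.8 and 23.2 for that state. CDKN2A had both marks by any of its TSSs but neither at its canonical TSS.

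Most genes listed for the enzymes and readers of these marks carried both marks, and the others had H3K4me3 only. Among 17 genes of H3K4 methylation, 14 had both marks and CXXC1, MEN1 and KDM1B had H3K4me3 only, MEN1 having both marks with H3K27ac replicate 2 as the only list. SETD1B, an H3K4 methyltransferase, had the highest H3K27ac of the list at 37.4 and 48.0. KMT2A, of the MLL family, had 11.5 and 6.23. Among 13 genes of acetylation, 11 had both marks and KAT2B and HDAC8 had H3K4me3 only. EP300 and CREBBP, which encode the H3K27 acetyltransferases, had H3K27ac at 38.4 and 25.9 and at 33.3 and 15.7. BRD2, a bromodomain reader of acetylated histones, had 58.6 and 39.4. Of 21 Polycomb and related genes, 19 had both marks, EZH2 among them with 31.2 and 13.1, and BMI1 and CBX7 had H3K4me3 only. BMI1 lay in one of the widest H3K4me3-only loci, of 8219 bp, where replicate 1 listed an H3K27ac peak of fold 3.28 and replicate 2 listed none. With the strongest peaks only, H3K4me3 alone was found at 6 of the H3K4 genes and 7 of the Polycomb genes.

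Immediate early genes, which respond within minutes to growth signals, had both marks at 15 of 18 promoters (83.3%, against 44.7% of all genes). KLF6 had H3K27ac at 46.0 and 29.3, EGR1 at 32.0 and 21.0, JUND at 31.3 and 17.4 and IER2 at 24.1 and 33.0. EGR1 had much acetylation over modest H3K4me3, at 20.7 and 21.8. EGR2 and ATF3 were low in both marks, with H3K27ac at 6.48 and 4.62 and at 4.50 and 4.09. KLF2 and KLF4 had H3K4me3 only, at 19.1 and 20.6 and at 15.5 and 21.8, and EGR3 had neither mark.

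Of 23 genes known to be raised by EWSR1::FLI1, 18 had both marks (78.3%, against 44.7% of all genes) and the other 5 had H3K4me3 only. Several of these promoters lay in very wide regions. The H3K27ac region at CAV1, which encodes the coat protein of caveolae, spanned 53487 bp, with fold enrichments of 35.4 and 28.2 at the promoter. That at CCND1 spanned 22905 bp with 14.6 and 11.8. BCL11B, a zinc finger factor, had a region of 22322 bp with 16.8 and 12.1. NKX2-2, a homeobox factor used as a diagnostic marker of the tumour, had 18546 bp with 14.9 and 12.6. NR0B1, an orphan nuclear receptor, had 8961 bp with 16.7 and 15.01. ID2, an inhibitor of basic helix-loop-helix factors, had a higher fold, 31.8 and 24.4, over 5274 bp. CD99, the surface antigen used to diagnose the tumour, had H3K27ac at 13.1 and 11.1, and it lies in the pseudoautosomal region, where X and Y copies share their sequence. At the low end, STEAP1 had H3K27ac at 7.86 and 5.04, SOX2 at 8.23 and 5.15 and IL1RAP at 4.10 and 7.62. The 5 genes with H3K4me3 only were PAX7, KLF15, GLI1, NPY1R and PPP1R1A. Their H3K4me3 went from 7.23 and 12.9 at PAX7 to 24.95 and 26.9 at NPY1R, and NPY1R was the one above the medians of H3K4me3-only genes, 22.8 and 23.2. With the strongest peaks only, 9 of the 23 had H3K4me3 only. PRKCB had both marks by any TSS but H3K4me3 only at its canonical TSS.

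Of 12 genes known to be lowered by the fusion, 5 had both marks, 5 had H3K4me3 only and 2 had neither. In all, 10 had H3K4me3 (83.3%, against 62.8% of all genes) and 5 had H3K27ac (41.7%, against 46.1%). JAG1, CCN1, CCN2, IER3 and SPRY1 had both marks. CCN1, a matrix protein gene, had the highest H3K27ac among them, at 18.5 and 8.94, and SPRY1, an inhibitor of growth factor signalling, the lowest, at 3.94 and 4.13. TGFBR2, FOXO1, DKK1, PHLDA1 and LOX had H3K4me3 only. TGFBR2 had H3K4me3 at 32.9 and 33.3, FOXO1 at 28.2 and 28.7 and DKK1, an inhibitor of WNT signalling, at 18.3 and 19.3. LOX, a cross-linking enzyme of collagen, was near the limit of detection at 3.11 and 3.59. IGFBP3 and THBS1 had neither mark in spite of CpG ratios of 0.91 and 0.83. With replicate 1 as the only H3K27ac list, TGFBR2 had both marks. SPRY1 had H3K4me3 only at −log10 q of at least 5, with the strongest peaks only and at its canonical TSS. No test was made between the lists of raised and lowered genes. Both lists come from general knowledge of the fusion, but they were chosen with earlier results of these data known.

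In the ETS family, 11 of 27 genes had both marks (40.7%, against 44.7% of all genes), 7 had H3K4me3 only and 9 had neither. ETV6, a repressor of the family, had H3K27ac at 23.9 and 18.9, and GABPA, a widely expressed activator, had 16.1 and 18.2 with H3K4me3 at 71.7 and 128. ETS1 had H3K4me3 only, at 12.8 and 11.4, from a window at a TSS other than the canonical one, where neither mark was called. ETS2 had H3K4me3 at 41.4 and 21.0. The growth-signal-induced ETV4 and ETV5 had H3K4me3 only at low levels, 3.58 and 4.90 and 7.52 and 5.14. ETV4 had neither mark at −log10 q of at least 5 or with overlaps of at least 50% of the shorter interval. ERG and FEV, which replace FLI1 in some Ewing sarcomas, had neither mark, and the same was true of SPI1, SPIB, SPIC, ELF3, ELF5, EHF and SPDEF, genes of blood or epithelial cells.

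Among 16 genes of surface receptors and antigens studied in sarcoma, 7 had both marks (43.75%, near the 44.7% of all genes). Another 7 had H3K4me3 only (43.75%, against 18% of all genes). IGF1R, the receptor of insulin-like growth factor 1, had the highest H3K27ac of the list at 80.1 and 29.1. These values came from a window at a further start inside the gene, where a region of 25369 bp (chr15:98880280-98905648) was classed as H3K27ac only, and a locus of 29329 bp with both marks ended just before it, at 98879983. At its canonical TSS alone IGF1R also had both marks. IGF1R had 23 H3K27ac-only loci within the gene and 10 kb to each side. EPHA2 had H3K27ac at 24.7 and 21.2 and KIT at 9.51 and 6.39. The related INSR had H3K4me3 only, at 47.5 and 49.9, as had MET at 30.6 and 33.0 and ENPP1 at 25.4 and 25.7. PDGFRA and ST8SIA1 had neither mark. MET had both marks with H3K27ac replicate 2 as the only list, PDGFRB with either replicate as the only one, and with the strongest peaks only 4 of the 16 genes had both marks.

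**Figure D4:**
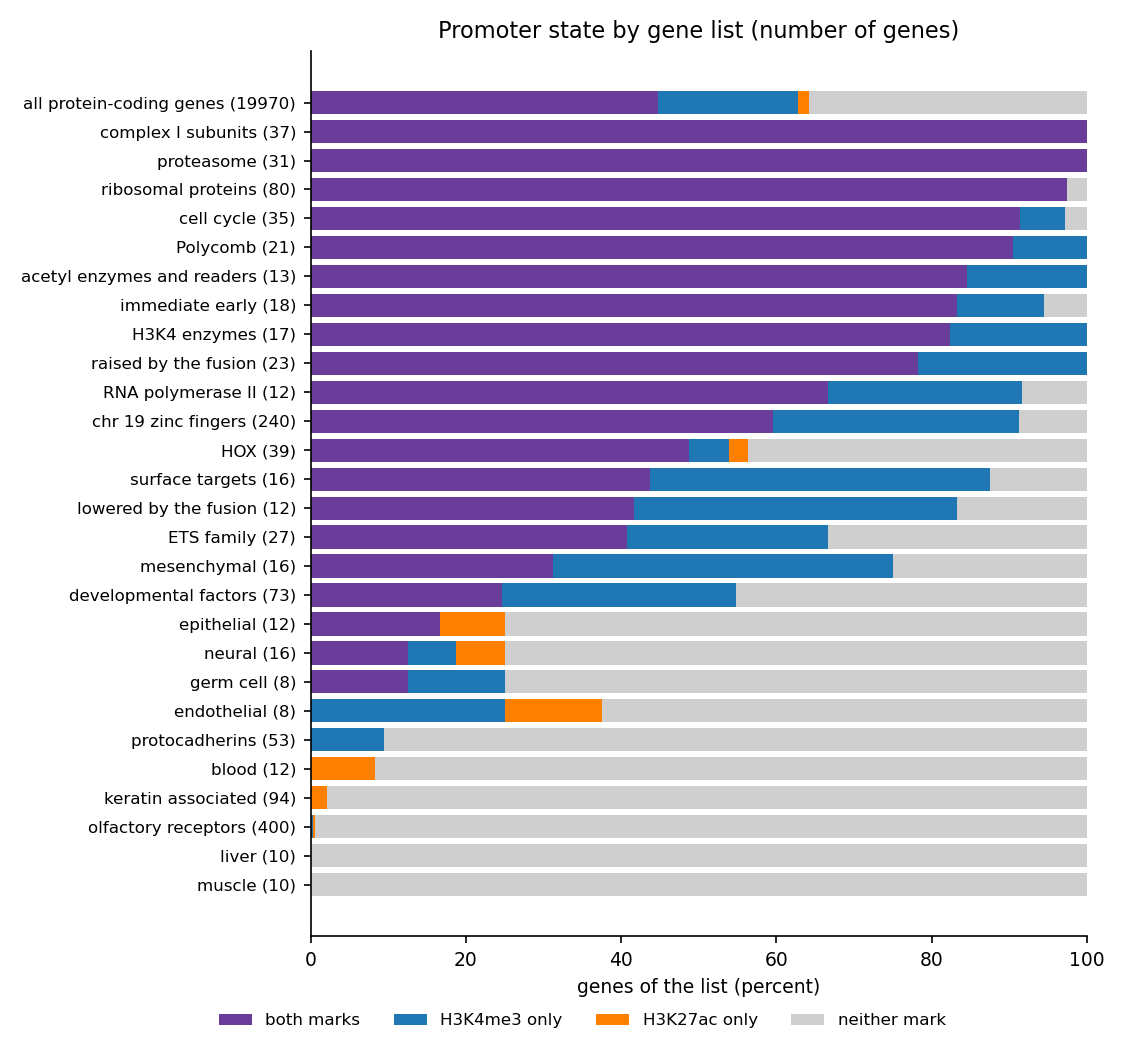
Promoter state of the genes of each list (horizontal axis, percent of the genes of the list, with the number of genes in brackets). Colours are the 4 states; the top bar gives all 19970 protein-coding genes, of which 44.7% had both marks, and lists of basic functions lie above that share and lists of other tissues below it.

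Markers of other cell types were mostly unmarked. All 10 liver genes and all 10 muscle genes had neither mark, against 35.8% of all genes. The median CpG ratio was 0.279 for liver, 0.428 for muscle, 0.219 for blood and 0.349 for endothelial genes. It was 0.531 for epithelial and 0.723 for germ cell genes. Of all genes, 80.9% had neither mark at ratios from 0.2 to 0.4, 59.2% from 0.4 to 0.6 and 23.8% from 0.6 to 0.8. The part of CpG content in these counts was not tested. Of 12 blood genes, 11 had neither mark. Of 12 epithelial genes, 9 had neither mark, and KRT8 and KRT18, neighbouring keratin genes that share an H3K4me3 peak at 38.3 and 39.4, had both. EPCAM, an epithelial adhesion molecule, had H3K27ac only, at 4.90 and 4.36, and it had both marks with H3K4me3 replicate 1 as the only list. Of 8 endothelial genes, KDR and EGFL7 had H3K4me3 only, PECAM1 had H3K27ac only and 5 had neither. The PECAM1 peak in the window was in replicate 2 alone, at 5.32, as part of a region held by both lists. PECAM1 had neither mark at its canonical TSS, with a window of 500 bp or with the strongest peaks only. EGFL7 had both marks with H3K27ac replicate 2 as the only list and neither at its canonical TSS. Of 8 germ cell genes, ZP3 had both marks, at low H3K27ac of 6.76 and 3.20, MAEL had H3K4me3 only and 6 had neither.

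Neural and mesenchymal markers, the lineages most often discussed for Ewing sarcoma, are given side by side without a test between them. Of 16 neural genes, 12 had neither mark, 3 had H3K4me3 and 3 had H3K27ac (18.75% each), of which ENO2 and TUBB3 had both at low H3K27ac (4.31 and 4.54, and 5.38 and 3.23), and NEFL had H3K4me3 only. SOX10, a neural crest factor, had H3K27ac from a single peak of 2.81 in replicate 1, and neither mark with replicate 2 as the only H3K27ac list. TUBB3 had H3K4me3 only at −log10 q of at least 5. Of 16 mesenchymal genes, 12 had H3K4me3 (75%, against 62.8% of all genes) and 5 had H3K27ac as well (31.25%, against 46.1%). These were VIM, the intermediate filament vimentin, at 22.6 and 15.7, FN1, the matrix protein fibronectin, at 26.7 and 10.3, SPARC, RUNX2 and LGALS1. The mesenchymal transcription factors TWIST1 and SNAI2 had H3K4me3 only, at 43.0 and 39.4 and at 11.01 and 16.2. So had the collagen genes COL1A1, at 4.69 and 3.03, COL3A1, COL6A1 and COL6A2. With replicate 1 as the only H3K27ac list, COL1A1 and COL3A1 had both marks. CD44, PRRX1, COL1A2 and S100A6 had neither mark.

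Developmental transcription factors split into 3 parts. Of 73 genes, 18 had both marks, 22 had H3K4me3 only (30.1%, against 18% of all genes) and 33 had neither, and their H3K27ac regions were wide where present, the median being 5794 bp and that of all genes with both marks 1640 bp. DLX2, a homeobox factor of forebrain and jaw, had H3K27ac at 33.2 and 27.6, and OTX2, a factor of anterior brain, had 33.1 and 21.3 over 26411 bp. TBX5, a factor of heart and forelimb, had 21.9 and 11.2 over 26738 bp. MEIS1, a cofactor of HOX proteins, had 27.4 and 15.8, with 20 H3K27ac-only loci in and around the gene. PAX3 and SOX1, factors of the early nervous system, had 13.2 and 18.3 and 20.7 and 14.3. PAX6, EN1 and MSX1 were among those with H3K4me3 only, with H3K4me3 at 28.8 and 33.6, 33.0 and 32.9, and 52.7 and 28.9. With H3K27ac replicate 1 as the only list, PAX6, EN1 and MSX1 had both marks.

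The HOX clusters, which set position along the body axis, differed as wholes. None of the 11 HOXA genes had either mark. In the HOXB, HOXC and HOXD clusters 19 genes had both marks, HOXC12 and HOXD9 had H3K4me3 only and HOXB5 had H3K27ac only. Over the 39 HOX genes, 48.7% had both marks, near the 44.7% of all genes, and 43.6% had neither, against 35.8%. HOXB13, at the end of its cluster, had H3K27ac at 30.1 and 11.6 and H3K4me3 at 91.6 and 91.3, in replicate 1 the highest of the HOX genes. Its H3K27ac region spanned 23391 bp. HOXD3 had H3K27ac at 16.97 and 17.8 and H3K4me3 at 65.5 and 113. HOXC6 and HOXC9 shared an H3K27ac region of 13478 bp. HOXB1, HOXC5, HOXD1, HOXD4, HOXD10 and HOXD12 had neither mark. Neighbouring HOX genes share peaks, so they are not independent. With −log10 q of at least 5, 4 of the 39 genes had H3K4me3 only in place of 2, and 5 did with the strongest peaks only.

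Large tandem families of tissue-restricted genes were almost empty. Of 400 olfactory receptor genes, 398 had neither mark, OR1F1 had H3K4me3 only and OR4E2 had H3K27ac only. Of 94 keratin-associated protein genes, 92 had neither mark and KRTAP10-2 and KRTAP10-6 had H3K27ac only. Of 53 clustered protocadherin genes, whose isoform promoters are chosen one at a time in neurons, 48 had neither mark. PCDHA4, PCDHA6, PCDHB2, PCDHGB2 and PCDHGC3 had H3K4me3 only, with PCDHGC3 highest in replicate 1 at 26.2, and 26.1 in replicate 2. Of the 53, 3 had H3K4me3 only with replicate 1 as the only H3K27ac list. The median CpG ratio was 0.143 for olfactory receptor, 0.166 for keratin-associated and 0.636 for protocadherin genes. Of all genes, 88.5% had neither mark at ratios up to 0.2, and 23.8% from 0.6 to 0.8. The part of CpG content in the family counts was not tested. Members of these families are similar in sequence, so the placement of reads among them is uncertain.

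Further calls of named genes depended on the setting. With the strongest peaks only, ATF3, EGR2, ENO2, IL1RAP, KRT8, MTAP, NDUFA3, RUNX2, SOX2, STEAP1, TUBB3 and ZP3 had H3K4me3 only, and EPCAM and SOX10 had neither mark. With H3K27ac replicate 1 as the only list, BMI1, HOXC12, OR1F1, PCDHB2 and PCDHGC3 had both marks. With 1 H3K4me3 list, HOXD1 and PRRX1 (replicate 2) and ST8SIA1 (replicate 1) had H3K4me3 only. At −log10 q of at least 5, LOX and SOX10 had neither mark and RUNX2 had H3K4me3 only. At canonical TSSs, EPCAM, HOXD3, KRT8, MAEL and SOX10 had neither mark, and HOXC6 and ZP3 had H3K27ac only. With a window of 2.5 kb, COL3A1, EGFL7, EN1, ETV4, HOXD9, HOXD12, MET, PDGFRB and RPL3L had both marks, EGR3 had H3K4me3 only and S100A6 had H3K27ac only. With a window of 500 bp, SOX10 had neither mark and ZP3 had H3K4me3 only.

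The strongest promoters of the states were ranked by the lowest percentile of fold enrichment over the lists of the marks they carried. With both marks these were RBM39, CNBP, SRSF5, TARDBP, CDK14, PTP4A1, AARS1 and DDX19B, beside 2 genes without a symbol. RBM39, a splicing factor, had H3K27ac at 41.1 and 27.7 and H3K4me3 at 109 and 121. SRSF5, another splicing factor, had 44.8 and 26.7 and 106 and 118. TARDBP, which encodes the RNA-binding protein TDP-43, had 40.3 and 23.7 and 102 and 119. AARS1 and DDX19B had the same highest peaks of both marks in their windows.

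Among genes with H3K27ac only, SLC25A45 ranked first at 39.5 and 34.8. Next to it came CYP2F1, a cytochrome P450, at 36.7 and 27.9, PDE6A, a photoreceptor phosphodiesterase, at 41.2 and 24.99, and OR4E2, an olfactory receptor, at 37.6 and 24.8. SEZ6, BTBD19, DYNLT4, ZNF750 and IP6K3 followed, the last at 29.9 and 24.1. The CpG ratio was 0.184 at CYP2F1, 0.181 at PDE6A and 0.146 at OR4E2, and the PDE6A start lay within an H3K27ac region of 16847 bp. Among H3K4me3-only genes, KLHL17 ranked first at 93.9 and 124, followed by TPRN, PRICKLE4, DHX16, PNPLA7, FAM32A and CFAP57, the last at 75.1 and 84.7. In 7 of these 10, KLHL17, TPRN, PRICKLE4 and PNPLA7 among them, the promoter window touched a locus with both marks whose H3K27ac lay outside the window. This was so for 119 of all 3602 H3K4me3-only genes (3.30%), and of the listed genes for EN1, MET, RAX and COL3A1. DHX16, FAM32A and CFAP57 touched no locus with both marks.

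The widest locus with both marks spanned 59325 bp (chr22:46035893-46095217) over the starts of the noncoding genes MIRLET7BHG, PRR34 and LINC00899, with H3K27ac at 64.2 and 37.8. The locus at CAV1 followed with 53487 bp and that at NFIX, a nuclear factor I gene, with 35804 bp. Others lay at LINC-PINT, KIRREL1, RHOH, ITGB2 with SLX9, IGF2BP1, ZFHX3 and in an intron of IGF1R. IGF2BP1, an RNA-binding protein of fetal tissue, had a locus of 29863 bp with H3K4me3 at 46.3 and 115. Of the H3K27ac-only loci the widest lay in an intron of GRK5, a kinase of G protein-coupled receptors (37406 bp, 34.6 and 28.4). That at the further IGF1R start (25369 bp) and one in an intron of MAPT, the gene of tau (24373 bp), came next. The others were in DAPK2, SLC25A48, ACTN4, PXN, TRAM2 and SSBP3 and at GDF15. H3K4me3-only loci were narrower. The widest, 10990 bp at JMJD4 and SNAP47, had an H3K27ac peak in each list, of 4.72 and 4.33, but these did not overlap each other. The next, 8843 bp at GBA2 and RGP1, had none in either list.

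Distal H3K27ac was clustered. The 18649 H3K27ac-only loci that touched no TSS window formed 10413 clusters when neighbours were joined across gaps of a length often used for enhancer clusters, between the 5 kb and 25 kb tried as alternatives. Of these clusters 6352 were single loci and 505 held 5 or more, up to 24, so that 65.9% of loci had a neighbour. By covered length the first cluster was again in GRK5, with 20 loci over 122 kb and 73.4 kb covered. The next overlapped SHB, an adaptor of receptor tyrosine kinases, with 65.6 kb covered, then at DIP2B with 62.7 kb and at PRKCB, a protein kinase C gene raised by the fusion, with 51.2 kb. Clusters in KIAA1217, BCL11B, OPCML, TRAM2 and ATXN1 and nearest to CRB2 followed with 49.1 to 45.3 kb. The genes that held most H3K27ac-only loci were long ones, KIAA1217 with 65, RERE with 55, EXT1 with 43, MYO10 with 40, TENM2 with 39 and PRKCB with 37. OPCML, ASAP1, MAGI1 and TNC held 36 to 30. Per length, TNC, the matrix protein tenascin C, was densest of these with 25.3 loci per 100 kb, and TENM2 had 2.99.

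The share of genes with H3K27ac-only loci around them differed by promoter state. Within the gene and 10 kb to each side, 50.9% of genes with both marks had at least 1 H3K27ac-only locus, against 31.7% of H3K4me3-only genes and 14.8% of genes with neither mark. Per Mb the densities were 19.4, 7.46 and 3.51 loci. For H3K27ac-only genes the share was 98.2%. These counts include loci in TSS windows, which a gene with H3K27ac can hold at its own starts. Without loci that touched any TSS window, a choice made after seeing the data, the shares were 42.0% with both marks, 27.8% with H3K4me3 only, 50.9% with H3K27ac only and 12.48% with neither, at 14.7, 6.32, 15.6 and 2.75 loci per Mb. Genes with both marks were of median length 33.3 kb, H3K4me3-only genes of 41.5 kb and genes with neither of 15.7 kb. The part of gene length in these shares was not tested.

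Over all loci, GGAA repeats were most frequent at H3K27ac-only loci, but away from TSSs the order of the classes depended on where repeats were counted. Of all H3K27ac-only loci, 960 (4.23%; 3.97% to 4.50%) had a run of at least 4 units in the 1 kb to either side of the locus centre. The share was 0.466% in loci with both marks (0.333% to 0.635%) and 0.325% in H3K4me3-only loci (0.192% to 0.513%), against 0.834% of genome windows. Counted inside the locus, the shares were 2.49%, 1.66% and 0.252%, so that wide loci with both marks came closer to H3K27ac-only loci. Among loci that touched no TSS window, the share within 1 kb of the centre was 3.55% with both marks (14 of 394; 1.96% to 5.89%) and 4.63% with H3K27ac only (4.33% to 4.94%). Inside the locus the order was the opposite, with 4.82% of these loci with both marks (19 of 394; 2.93% to 7.43%) and 2.53% with H3K27ac only (2.31% to 2.76%). For runs of 8 or more units inside the locus the shares were 4.06% (2.34% to 6.51%) and 1.65% (1.47% to 1.84%). Seen from the repeats, the share near H3K27ac in both lists was higher for longer runs up to 20 units. It was 6.52% of 10244 runs with 4 to 5 units, 15.1% of 910 runs with 8 to 9 units and 35.3% of 204 runs with 17 to 20 units (28.7% to 42.3%). Per replicate, 39.2% and 36.8% of the runs with 17 to 20 units had an H3K27ac region within 1 kb. The ab4729 library gave the same order from 3.18% to 23.5%. For H3K4me3 in both lists the shares were between 1.07% and 2.94% over the 6 length bins up to 20 units. Longer runs were too few to read. Of 6 runs with 21 to 30 units, 2 lay near H3K27ac and 0 near H3K4me3 in both lists, and of 5 runs with 31 to 39 units, 2 and 1 did. In the siFLI1 H3K27ac lists, 21.6% and 21.6% of runs with 17 to 20 units had a region within 1 kb.

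**Figure D5:**
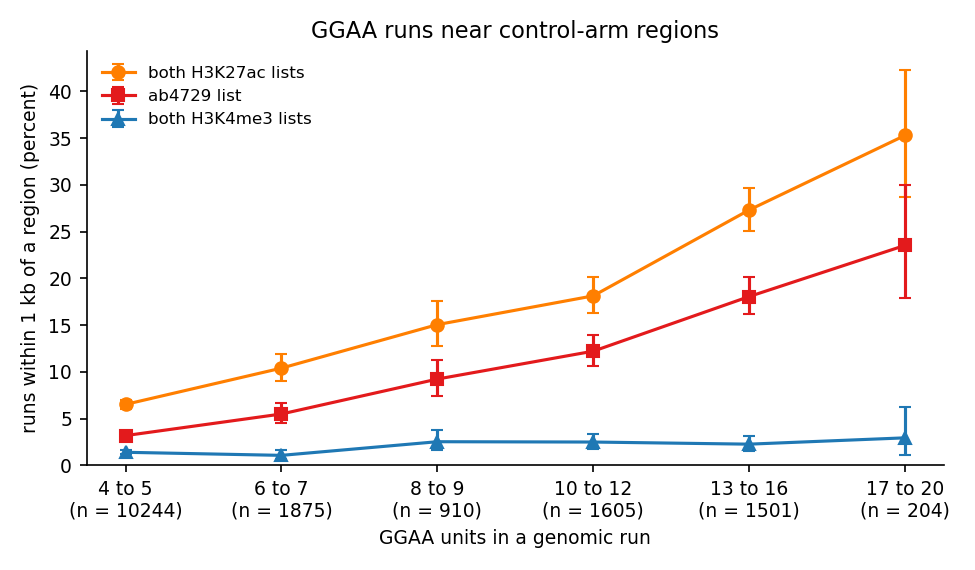
Share of genomic GGAA runs with a siNEG region within 1 kb (vertical axis, percent) by the number of units in the run (horizontal axis, with the number of runs in brackets), for runs up to 20 units. Points are shares and bars exact 95% binomial intervals over runs; H3K27ac in both lists goes from 6.52% to 35.3%, the ab4729 list from 3.18% to 23.5%, and H3K4me3 in both lists does not exceed 2.94%.

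The H3K27ac-only loci away from TSSs were ranked by fold enrichment, and 3 of the first 10 held such a repeat. The highest fold, 71.6 and 55.0, was at a locus in an intron of MYT1L, a neuronal transcription factor gene. The locus nearest to ARG1, 86677 bp from that gene's start, had 55.6 and 54.0 over 11006 bp with a run of 13 units. That nearest to SPRED2, at 315518 bp, had 50.7 and 44.4 with a run of 14 units. The other seven of the top 10, in CRTC1, OPCML, FAM178B and GARIN1B and nearest to MYF5, TRMT9B and VCL, had no such run in the 1 kb around the centre. In CRTC1, a coactivator of CREB, H3K27ac was 56.2 and 47.2. The nearest gene is named by distance alone, and MYF5 itself, a muscle factor, had neither mark at its promoter.

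Chromosomes and gene types differed in density. Chromosome 19 had 11.4 loci with both marks per Mb at 25.2 protein-coding genes per Mb, and chromosome 13 had 1.29 at 2.82 genes per Mb. For each locus with both marks there were from 1.18 H3K27ac-only loci on chromosome 19 to 3.64 on chromosome 8. On the X chromosome 30.7% of genes had both marks and 49.6% had neither, the lowest and highest shares of the 23 chromosomes. Of 13270 long noncoding RNA genes with no protein-coding start within 5 kb, 3.34% had both marks, 2.33% H3K4me3 only and 5.60% H3K27ac only, and 88.7% had neither. H3K27ac only was thus the most frequent marked state of these genes. Over all 18756 long noncoding RNA genes it was the rarest, as in protein-coding genes. There 14.3% had both marks, 6.79% H3K4me3 only and 4.88% H3K27ac only. With the same distance filter it was also the most frequent marked state of small nuclear RNA (4.55%), microRNA (5.15%) and miscellaneous RNA genes (3.36%). The same was true of processed pseudogenes (1.53%), but not of small nucleolar RNA genes (2.79%, against 4.75% with both marks).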

How the data were processed

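Chromatin immunoprecipitates of 3 targets in TC-32 cells were sequenced in 22 samples, of which 14 had peak lists and 8 were inputs. Per the submitters' processing notes, the tools were cutadapt 4.4, BWA 0.7.17, Picard 2.17.11 and MACS2 2.1.1, with the builds GRCh38/hg38 and dm6; settings and the control library of each list were not given in the sources used here. Peaks were called per library. The fold enrichment of a peak is the authors' deposited ratio, for which the use of dm6 (the fly genome) is not given in the sources used here, and the deposited −log10 q values of the control lists were at least 2.01, so a region not listed is below that limit in that library. The peak lists give no read totals, so depth behind a peak was not used.

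The members and gene lists were chosen with earlier results of these data known. From the 4 control lists, regions of a mark were merged across replicates and kept where both lists contributed; marks were joined by an overlap of 1 bp. Promoter windows were 1 kb to each side of every TSS of GENCODE release 44. GGAA runs, CpG ratios and motifs were read from hg38, and promoter sequences from RefSeq (21548 of the 35116 promoters in its table were used, matched by symbol). Named genes were those of the 28 lists and the 10 highest per state by the lower percentile of fold enrichment over lists; genes without a symbol are not named, and some listed genes are not reported here. Marks were compared over libraries with the exact permutation test, and intervals are 95% Clopper-Pearson intervals for counting error only. The replicate numbers are shared between marks, but nothing says that they mark a shared culture. The assignment steps were tested on simulated regions. Alternatives were a stricter q, equal numbers of the strongest peaks, other windows, canonical TSSs, marks joined within 1 kb and each library left out. Python 3.11.15, pandas 2.3.3, numpy 2.4.6, scipy 1.17.1, pysam 0.24.0 and samtools 1.23.1 were used.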

Additional observations from a re-analysis of the deposited data

Results flagged for a closer look

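Some control peaks lay outside chromosomes 1 to 22 and X and entered no comparison. They were all on unplaced or unlocalised contigs. There were 6 in H3K27ac replicate 1, 8 in H3K4me3 replicate 1 and 12 in H3K4me3 replicate 2, each above the limit of 3 counts used for a count of 0. H3K27ac replicate 2 had 3.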

How the results depend on the processing

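No difference between marks changed sign, but the order of the class counts did change. The number of H3K27ac-only loci was 7568 with the 18914 strongest peaks of each list, where 7854 loci had H3K4me3 only and 6197 both marks, and it ranged from 22514 to 44627 when 1 library was left out. H3K4me3-only loci ranged from 4445 to 9941 with 1 library left out, and loci with both marks from 8907 to 9710. Without H3K4me3 replicate 1 or 2, H3K4me3-only loci (9941 and 9222) outnumbered loci with both marks (8954 and 8907). Leaving out a library means that presence in the other list of that mark was enough. With the strongest peaks only, 5859 genes had H3K4me3 only and 128 had H3K27ac only, since the H3K27ac lists are then cut to fewer peaks. With 1 library left out, genes with both marks ranged from 8946 to 9923, with H3K4me3 only from 2615 to 3740, with H3K27ac only from 262 to 371 and with neither from 7019 to 7103. The share of loci with a GGAA run changed with its definition. Inside the locus only, it was 1.66% for both marks and 2.49% for H3K27ac only. For 8 or more units within 1 kb of the centre, it was 0.268% for both marks, 3.02% for H3K27ac only and 0.0721% for H3K4me3 only. The number of distal clusters was 12399 with gaps of 5 kb and 8524 with gaps of 25 kb.

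With the replicate number as a replicate block, the differences between marks were as without it, 34.1 percentage points in promoter share, 1.65 in log2 width and -1.64 in log2 number, and the exact permutation p was 0.50, the smallest that 2 pairs allow. With 1 library left out, they ranged from 33.0 to 35.2, from 1.59 to 1.70 and from -1.67 to -1.61. The promoter share differed by 20.8 points with windows of 500 bp and by 43.3 points with windows of 2.5 kb. Of the 19970 genes, 87.9% to 99.4% kept their state under the single alternatives, and of 1330 genes in the lists, 1134 had the same state in all 10. A promoter without a listed peak may still carry the mark below the authors' q limit, and how far depth limits this was not tested.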
